A study of Mus musculus with 12 samples.

Results

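The comparison described here asks which genes differ in multipotent progenitors (MPP) of the mouse bone marrow when the transcription factor NFAT5 is removed from blood cells. It rests on 6 of the 12 arrays of the study: 3 from MPP of Nfat5-deficient mice and 3 from MPP of control mice, chosen by the population and genotype that the labels give. The knockout animals (KO; mice 2, 11 and 70) were Nfat5 fl/fl Vav-Cre, and the controls (WT; mice 3, 12 and 64) were Nfat5 +/+ Vav-Cre, so the Cre recombinase was present in every animal. Vav-Cre acts throughout the haematopoietic system, not in MPP alone, and NFAT5 was therefore lost in the parents and the descendants of these cells too. All mice were untreated and in steady state, and the sources used here do not state their ages. MPP were sorted from lineage-negative, Sca-1 and Kit positive marrow cells as CD48+ CD150- cells, and haematopoietic stem cells (HSC) of the same mice, sorted as CD48- CD150+, are used only as a point of comparison. Each array holds the cells of 1 mouse, so the 3 mice of a genotype are the replicates.

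NFAT5 is a relative of the NF-kB and NFAT factors that binds DNA as a dimer and does not depend on calcineurin. It is best known for switching on transporters and enzymes that gather compatible osmolytes when the surroundings of a cell become hypertonic, and it also takes part in inflammatory gene expression of macrophages and in lymphocyte function. MPP are the dividing progenitors just below the stem cells. They have lost long-term self-renewal and begin to express genes of the lymphoid and myeloid lineages.

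No gene passed the threshold in KO against WT MPP. Of 14620 genes tested with limma and adjusted by the Benjamini-Hochberg method, 0 had an adjusted p under 0.05, and the lowest adjusted p was 0.854, for Cmah. At an unadjusted p under 0.05 there were 466 genes (3.19% of those tested, against 731 that this threshold gives on average without any difference), 262 of them (1.79%) with the lower mean in KO and 204 (1.40%) with the higher. A fit on the 6 MPP arrays alone gave 652 such genes and also 0 after adjustment. For 1387 genes (9.49%) all 3 KO values lay on one side of all 3 WT values, with 682 lower (4.66%) and 705 higher (4.82%). Over the 20 arrangements of 3 against 3, a share of 0.1 separates in this way without any difference. A lack of overlap is therefore only a description of the values here. Of the 1387 genes, 451 (3.08%) also differed by at least 0.5, 272 lower (1.86%) and 179 higher (1.22%). The typical difference was small: the median of the absolute log2 difference was 0.147, and 206 genes (1.41%) differed by at least 1 on the log2 scale. The 95% interval of the difference lay between -1 and 1 for 74.2% of the genes, so a change of more than 2-fold in either direction is outside the interval for those genes. The median width to either side of the difference was 0.505. Every gene named below is therefore given as values that did not pass the test. In sorted bulk cells, fewer cells of a type and less RNA per cell cannot be told apart.

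**Figure D1:**
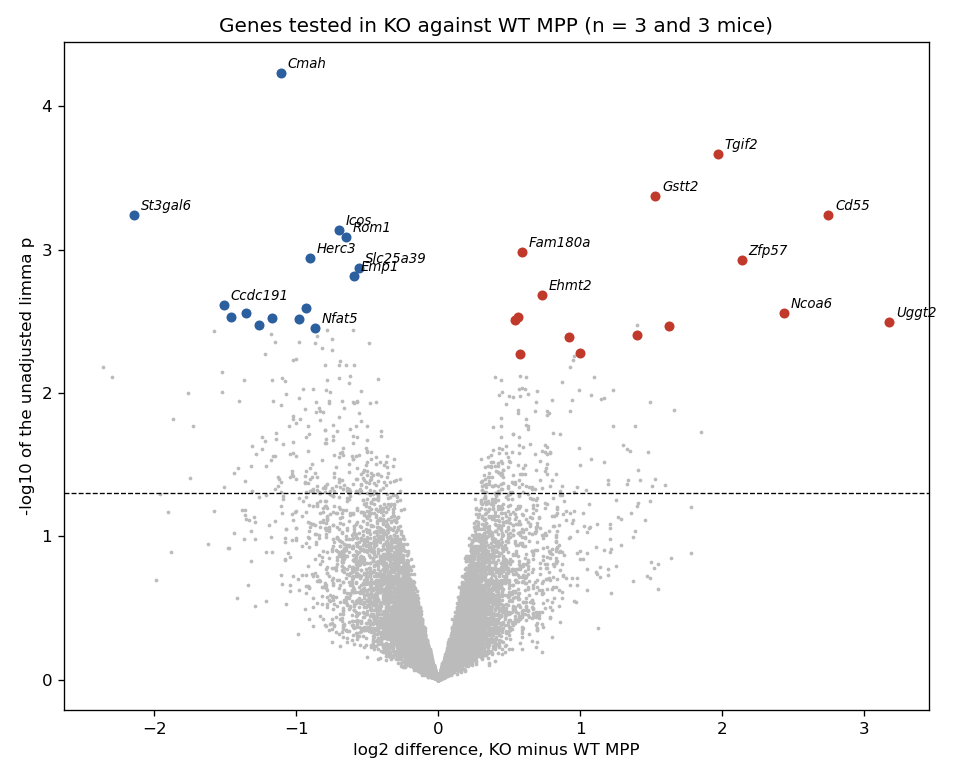
Each point is 1 of 14620 genes, with the log2 difference between KO and WT MPP on the x axis and -log10 of the unadjusted limma p on the y axis; the dashed line marks a p of 0.05. The coloured points are the 15 genes a side with the lowest p among those that differed by at least 0.5 and did not overlap (red higher in KO, blue lower), none of which passed after adjustment.

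Nfat5 itself separated the genotypes. On the log2 scale it read 6.99, 7.45 and 7.04 in KO mice 2, 11 and 70 and 7.82, 8.28 and 7.98 in WT mice 3, 12 and 64, the order in which all values below are given. Every KO value was lower than every WT value. The log2 difference was -0.87 (SE 0.23), which put the KO signal at 54.8% of WT, with p = 0.1 in a two-sided exact permutation test, the smallest that 20 arrangements of 3 against 3 allow. Where this probe set lies relative to the floxed exons was not known here, so no amount of NFAT5 can be read from what was left of the signal. Of 16 tested genes that neighbour Nfat5 on the chromosome, 11 had a difference above 0 and 5 below, with a median of 0.10. Cyb5b (0.40, SE 0.18) was the only one of these 16 whose groups did not overlap (6.25%, against 9.49% of all genes).

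Measured markers were set beside the sort label. Their lists were chosen with earlier results of these data known and include the genes of the sort antigens CD48 and CD150, so they are no independent check. The mean level over 17 genes of the multipotent progenitor list, among them the lymphoid-primed genes Dntt and Satb1, was 8.90 to 9.12 on KO MPP arrays and 9.04 to 9.17 on WT MPP arrays, against group means of 6.77 (KO) and 6.75 (WT) in HSC. For 23 measured stem cell surface receptors the mean levels were 6.48 to 6.70 and 6.65 to 6.71 in MPP, against 7.62 and 7.64 in HSC. Of the sort antigens, Kit had a log2 difference between genotypes of -0.26 (SE 0.26), Cd48 of 0.14 (SE 0.28) and Slamf1, which encodes CD150, of -0.26 (SE 0.34), and all 3 overlapped. The gene for Sca-1 was not analysed here. The mean over 16 measured markers of mature neutrophils differed from mouse to mouse within a genotype, at 6.34, 6.15 and 5.58 in KO and 6.33, 6.20 and 4.88 in WT. The low end in WT was mouse 64, in which S100a8 read 4.77. Array medians were alike (5.81 to 5.87), and correlations across genes were 0.917 to 0.942 among KO arrays, 0.936 to 0.958 among WT arrays and 0.917 to 0.957 between genotypes.

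The gene with the lowest p of all was Cmah, followed among the lower values by St3gal6, and both act on sialic acid, the sugar that caps many cell-surface glycans. The promoters of these 2 genes and of Zfp57, an imprinting factor with one of the larger differences in the other direction, are shown because NFAT5 binds a TGGAAA core. Each runs over the 250 bases before a RefSeq gene start in GRCm38.p6, written 5′ to 3′ along the gene. Capitals mark TGGAAA on either strand (TTTCCA on the other) and the longer osmotic response element of 11 letters, and where a gene had several starts the one with the most matches was taken. Cmah lies at chr13:24327154-24327403 (+ strand), St3gal6 at chr16:58524254-58524503 (- strand) and Zfp57 at chr17:37000913-37001162 (+ strand).
Cmah: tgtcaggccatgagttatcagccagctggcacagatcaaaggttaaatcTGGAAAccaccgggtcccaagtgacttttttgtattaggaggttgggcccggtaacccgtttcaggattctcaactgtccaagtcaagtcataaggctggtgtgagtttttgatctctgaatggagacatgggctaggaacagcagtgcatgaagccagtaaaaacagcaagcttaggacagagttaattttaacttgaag
St3gal6: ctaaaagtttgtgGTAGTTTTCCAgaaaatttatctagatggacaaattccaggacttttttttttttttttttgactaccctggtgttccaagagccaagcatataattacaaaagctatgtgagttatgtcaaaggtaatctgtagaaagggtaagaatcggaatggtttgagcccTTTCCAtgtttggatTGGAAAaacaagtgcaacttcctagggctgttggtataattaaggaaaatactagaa
Zfp57: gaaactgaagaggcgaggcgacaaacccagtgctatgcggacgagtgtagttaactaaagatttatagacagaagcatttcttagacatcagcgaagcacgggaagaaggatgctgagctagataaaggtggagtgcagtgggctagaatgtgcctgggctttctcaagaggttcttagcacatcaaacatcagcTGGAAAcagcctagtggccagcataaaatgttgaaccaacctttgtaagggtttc
The Cmah and Zfp57 windows hold 1 TGGAAA match each, and the windows at the other starts of these genes hold none. The St3gal6 window holds 3, of which 1 belongs to an osmotic response element. No match lies in the windows of Tgif2, which had the lowest p among the higher values. The same holds for Cd55, Uggt2 and Ncoa6, whose differences were larger than that of Zfp57. Matches are common: 18.6% of 32851 RefSeq promoters of this length hold TGGAAA and 4.31% hold the longer element, and the shares were 15.5% and 3.36% over promoters of the genes tested. Among the 15 named genes with lower values, 12 were matched to 16 promoters, of which 5 held TGGAAA. Among the 15 with higher values, 13 were matched to 20 promoters, of which 4 held it. Each start of a gene is counted, and St3gal6 and Fut8 held the core at more than 1 start, so these are not shares of genes. A match describes the letters in the window and is no evidence of binding.

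Cmah encodes the enzyme that hydroxylates CMP-sialic acid and so makes the N-glycolyl form. It read 7.06, 7.32 and 6.83 in KO and 8.05, 8.28 and 8.21 in WT. The 2 groups were each tight and lay apart, with a log2 difference of -1.11 (SE 0.17). St3gal6, a sialyltransferase that builds sialylated ligands of selectins, read 5.96, 5.67 and 6.98 in KO and 8.73, 7.99 and 8.31 in WT, a difference of -2.14 (SE 0.44). Its highest KO value, in mouse 70, was still 1 log2 unit below the lowest WT value. Nanp, the phosphatase that completes free sialic acid, read 5.40, 5.24 and 5.32 in KO and 6.78, 5.80 and 6.24 in WT, and the groups did not overlap (-0.95, SE 0.30). These 3 of 22 were the only members of the sialic acid list at an unadjusted p under 0.05 with limma, which 1.79% of all genes reached on the lower side. Over all 22 tested members the median was 0.06, with 12 above 0 and 10 below, and none passed after adjustment. The direction was therefore not shared by the list: the sialyltransferase gene St6galnac2 read 7.37, 6.24 and 7.91 in KO and 7.09, 6.46 and 5.66 in WT, overlapping, with a difference of 0.78 (SE 0.47). In HSC the KO minus WT differences were -0.24 for Cmah, 0.55 for St3gal6 and 0.61 for Nanp.

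**Figure D2:**
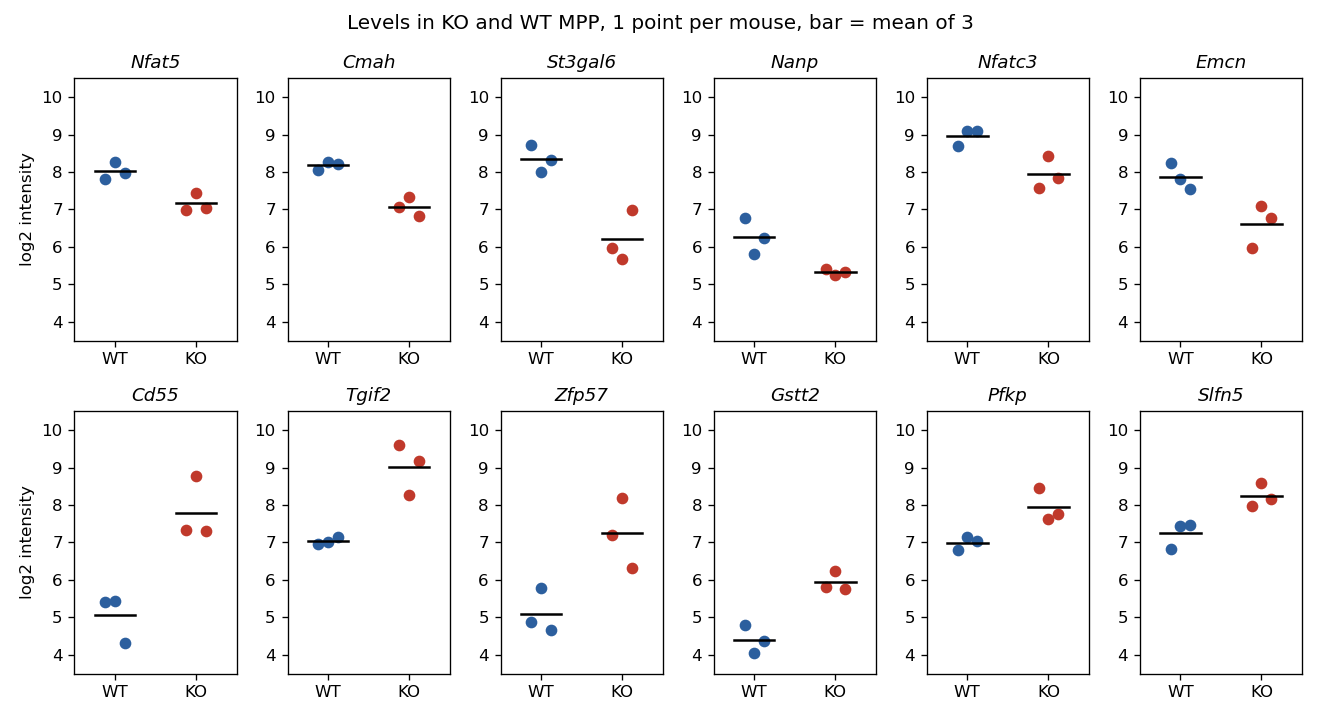
Log2 intensity (y axis) of 12 genes in MPP of 3 WT (blue) and 3 KO (red) mice, 1 point a mouse, with a bar at the mean of 3. In each panel the 3 KO points lie on one side of the 3 WT points: the upper row, from Nfat5 (-0.87) to Emcn (-1.26), is lower in KO and the lower row, from Cd55 (2.75) to Slfn5 (1.0), is higher.

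The other named genes with lower values in KO included 6 that encode membrane proteins. Icos, the inducible costimulator of T cells, read 6.16, 6.33 and 6.33 in KO and 6.74, 7.17 and 7.03 in WT (-0.70, SE 0.15). Emcn, the sialomucin endomucin of endothelial and stem cells, read 5.97, 7.08 and 6.77 in KO and 8.24, 7.82 and 7.55 in WT (-1.26, SE 0.34). Lrrc8c, a subunit of the volume-regulated anion channel that swelling cells open, read 5.90, 6.82 and 6.30 in KO and 7.46, 7.34 and 7.02 in WT (-0.93, SE 0.24). In each of these 3 the lowest WT value exceeded the highest KO value, for Lrrc8c by the least. Emp1, an epithelial membrane protein, had a difference of -0.59 (SE 0.14) and Rom1, a tetraspanin-like protein first described in photoreceptors, one of -0.65 (SE 0.14). Slc25a39, the mitochondrial glutathione carrier, read 6.56, 6.40 and 6.34 in KO and 6.99, 7.11 and 6.89 in WT (-0.56, SE 0.13).

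Further named genes with lower values encode nuclear proteins and enzymes. Nup205, a scaffold protein of the nuclear pore, read 6.32, 6.60 and 6.59 in KO and 8.16, 7.85 and 7.55 in WT (-1.35, SE 0.35). Esco2, which acetylates cohesin during DNA replication, read 5.62, 5.93 and 5.84 in KO and 7.61, 7.80 and 6.36 in WT (-1.46, SE 0.38). The KO values of Esco2 were close together, and WT mouse 64 stood nearest to them. Helz, an RNA helicase, had a difference of -1.17 (SE 0.31), Herc3, a ubiquitin ligase, one of -0.90 (SE 0.20), Fam169a one of -0.98 (SE 0.26) and Ccdc191 one of -1.51 (SE 0.38).

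The named genes with higher values in KO included several whose WT level was near the bottom of the scale. Genes whose mean over all arrays lay below 4.96 were left out as weak, so values near or under that level carry little. Cd55, the decay-accelerating factor that shields cells from complement, read 7.32, 8.77 and 7.31 in KO and 5.40, 5.45 and 4.31 in WT (2.75, SE 0.57). Uggt2, a glucosyltransferase that checks glycoprotein folding, read 7.21, 7.58 and 6.83 in KO and 3.03, 5.95 and 3.09 in WT (3.18, SE 0.84). Ncoa6, a coactivator of nuclear receptors, read 7.37, 7.50 and 5.59 in KO and 4.20, 4.23 and 4.70 in WT (2.44, SE 0.63). The spread inside a group was wide for these genes: WT mouse 12 stood nearly 3 log2 units above the other WT mice for Uggt2, and KO mouse 70 stood below the other KO mice for Ncoa6. Gstt2, a glutathione transferase, read 5.82, 6.24 and 5.75 in KO and 4.79, 4.05 and 4.38 in WT (1.53, SE 0.31). Its difference in HSC was 0.97 (SE 0.31), with overlapping groups.

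Tgif2, a homeodomain repressor that restrains Smad-driven transcription, had the lowest p among the higher values. It read 9.59, 8.27 and 9.17 in KO against 6.95, 7.01 and 7.15 in WT, and its WT values spanned a far narrower range than its KO values (1.97, SE 0.36). Its relative Tgif1 read 9.24, 8.25 and 7.93 in KO and 7.82, 7.71 and 7.80 in WT, also without overlap but with mouse 2 well above the others (0.70, SE 0.36). Over 30 tested genes of TGF-beta receptors, Smads and their repressors the median was 0.03, with 15 above 0 and 15 below.

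Zfp57, the zinc finger protein that keeps imprinted DNA methylation in place, read 7.21, 8.19 and 6.32 in KO and 4.87, 5.78 and 4.65 in WT (2.14, SE 0.49). Its partner Trim28 read 8.61, 8.47 and 8.44 in KO and 6.29, 6.56 and 7.76 in WT (1.64, SE 1.03). The groups did not overlap for either gene, and for Trim28 WT mouse 64 lay closer to the KO mice than to the other WT mice. Grb10, an imprinted adaptor of growth factor receptors, read 5.84, 5.79 and 5.04 in KO and 4.86, 4.80 and 4.95 in WT, so that KO mouse 70 was close to WT (0.69, SE 0.23). Over the 21 tested members of the list of imprinted genes and their regulators the median was -0.02, with 10 above 0 and 11 below. Ehmt2, the G9a histone methyltransferase, read 7.74, 7.32 and 7.15 in KO and 6.48, 6.80 and 6.75 in WT (0.73, SE 0.18).

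The rest of the named higher values were smaller or more variable. Rmi1, a subunit of the complex that dissolves Holliday junctions, differed by 1.63 (SE 0.44), the small GTPase Rhoq by 1.40 (SE 0.38), Jmy, a p53 cofactor and actin nucleator, by 1.0 (SE 0.29) and the tRNA methyltransferase subunit Wdr4 by 0.92 (SE 0.25). Fut8, which adds the core fucose of N-glycans, read 9.81, 9.73 and 9.98 in KO and 9.13, 9.46 and 9.31 in WT (0.54, SE 0.14). It was among the more strongly measured of the named genes, and its groups were both tight. Prss57, a serine protease of myeloid granules, differed by 0.58 (SE 0.17), Fam180a by 0.59 (SE 0.13) and Ccdc126 by 0.56 (SE 0.15).

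Genes that NFAT5 is known to drive under hypertonic stress did not separate the genotypes as a group. Of 15 tested members of the osmoadaptive list, Nfat5 among them, 7 were above 0 and 8 below, with a median of -0.05 against 0.00 over all genes. With Nfat5 itself counted, 13.3% of the 15 did not overlap, where the share of all genes was 9.49%. Besides Nfat5, 1 member did not overlap: Slc6a12, the betaine transporter, at 5.24, 5.03 and 4.92 in KO and 5.36, 5.26 and 5.25 in WT (-0.22, SE 0.18). That separation was narrow and the level low. The taurine transporter Slc6a6 read 9.03, 8.85 and 8.71 in KO and 9.0, 8.97 and 8.90 in WT, overlapping, with a difference of -0.09 (SE 0.21). S100a4 had a difference of -0.61 (SE 0.34) with overlapping values. The genes of aldose reductase and of the myo-inositol transporter were not analysed here.

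The calcineurin-dependent relatives of NFAT5 differed among themselves. Nfatc3 read 7.58, 8.44 and 7.84 in KO and 8.69, 9.09 and 9.09 in WT, all KO values below all WT values (-1.0, SE 0.29). Nfatc1 went the other way, at 7.62, 6.68 and 6.61 in KO and 6.61, 6.20 and 6.01 in WT (0.70, SE 0.33); the highest WT value met the lowest KO value at this rounding. Nfatc2 (-0.02, SE 0.25) and Nfatc4 (-0.08, SE 0.17) overlapped, and both differences changed sign when single arrays were left out. Of the 13 tested genes of the family, calcineurin and its regulators, 6 were above 0 and 7 below (median -0.02).

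Genes of mitosis and cytokinesis lay mostly below 0. Of the list's 49 tested members, 40 (81.6%) had a difference below 0, against 49.5% of all genes tested (50.5% were above 0), and the median was -0.22. The groups did not overlap for 10 members on the lower side and 2 on the higher, where the shares of all genes were 4.66% and 4.82%. None passed after adjustment, and 1 in each direction had an unadjusted p under 0.05 with limma. The list's mean level was 8.32, 8.52 and 8.21 in KO and 8.55, 8.63 and 8.66 in WT. Each KO mean was below each WT mean, by the least in KO mouse 11. The size leaned on KO mouse 70: without that array 36 members were below 0 and the median was -0.12, and over the 6 ways to leave out 1 array 36 to 39 members were below 0. These genes follow the cell cycle together, so they are not independent of one another. In HSC of the same mice the list's median was 0.12.

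Kif2c, a microtubule-depolymerising kinesin of the centromere, read 5.80, 6.35 and 4.64 in KO and 7.60, 7.54 and 7.54 in WT, the largest difference among the 49 (-1.96, SE 0.89). Aspm, a spindle-pole protein, read 6.01, 6.76 and 6.77 in KO and 7.87, 6.83 and 7.85 in WT, with WT mouse 12 next to the KO values (-1.0, SE 0.43). Hmmr, the hyaluronan receptor that also sits on spindles, read 6.49, 6.81 and 6.82 in KO and 7.13, 8.24 and 7.97 in WT (-1.08, SE 0.69). Racgap1, a regulator of the cleavage furrow, went against the list at 7.57, 7.37 and 8.62 in KO and 6.57, 6.88 and 6.88 in WT (1.08, SE 0.35). The proliferation marker Mki67 read 8.93, 8.85 and 8.82 in KO and 8.95, 8.99 and 9.16 in WT, a small difference of -0.17 (SE 0.22) in which the groups nearly touched. Cenpn, a kinetochore protein, had -1.21 (SE 0.55) with overlapping values.

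For other parts of the cell cycle the counts varied with single arrays. As each was left out, 24 to 32 of the DNA replication genes and 15 to 21 of the G1 genes were below 0. Of 42 tested DNA replication genes 27 were below 0 with a median of -0.08, which lay between -0.13 and -0.02 as single arrays were left out. Dut, which removes dUTP, had -0.45 (SE 0.21) without overlap. Of 25 tested G1 cyclins, kinases and inhibitors 18 were below 0 with a median of -0.17. That median was -0.05 without WT mouse 3 and -0.28 without WT mouse 64. Without KO mouse 2, the share below 0 was 84.0% for the G1 list and 76.2% for DNA replication, beside 75.5% for mitosis and 52.2% for all genes. The 2 members with the lowest p were Cdkn2c, which encodes the p18 inhibitor (-0.88, SE 0.39, overlapping), and Rbl1, which encodes the pocket protein p107 (-0.78, SE 0.38, no overlap). Rbl1 was -0.33 without KO mouse 2, and Cdkn2c was -0.50 without KO mouse 70.

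**Figure D3:**
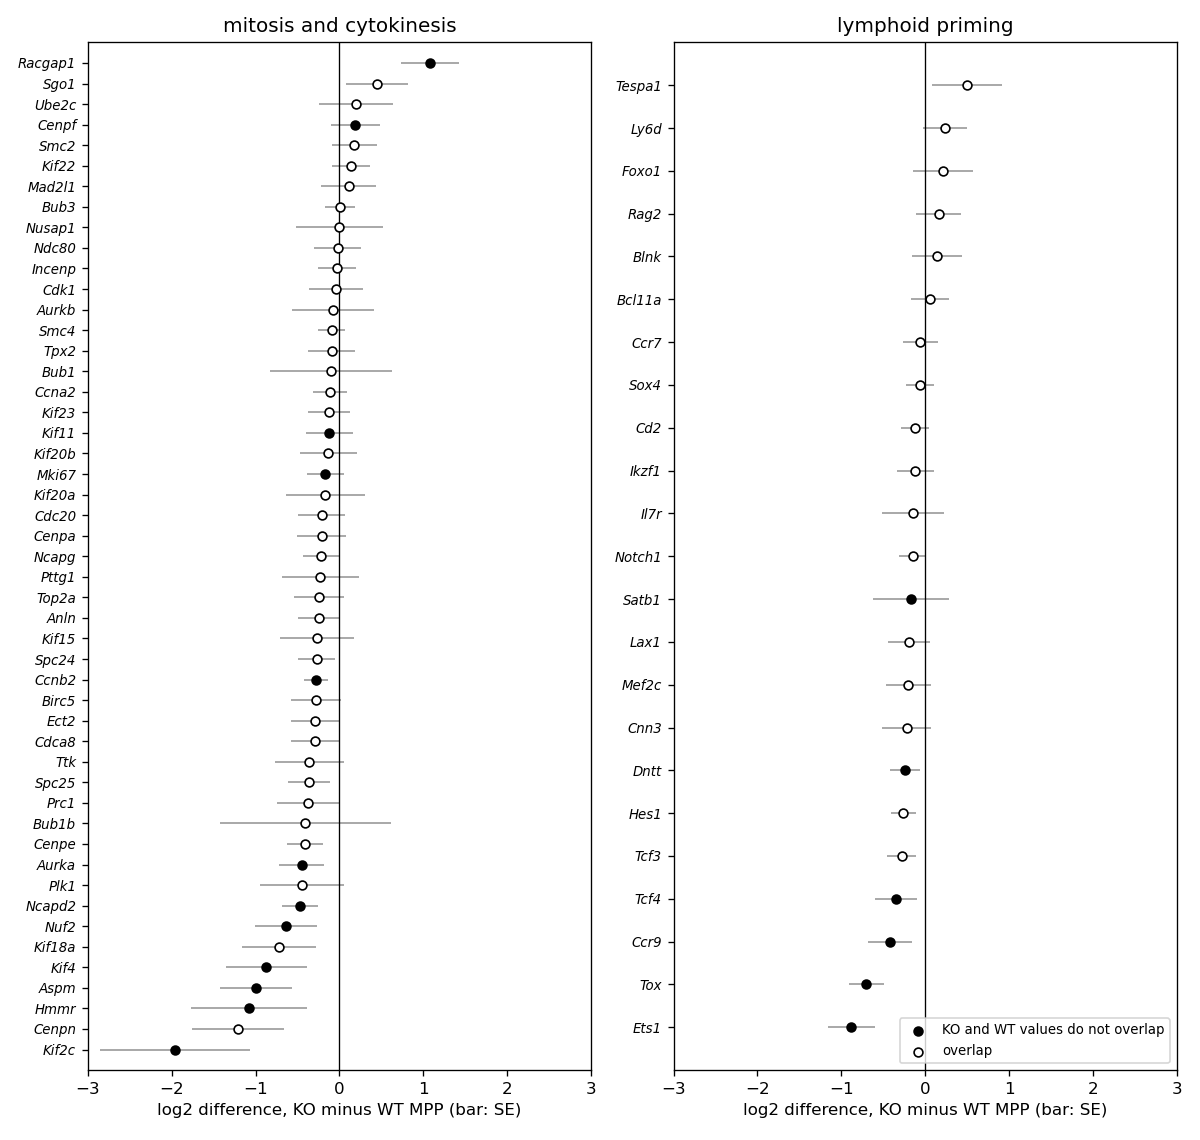
Log2 difference between KO and WT MPP (x axis) of the 49 mitosis genes and the 23 lymphoid priming genes that were tested, with bars for the SE; filled points mark genes whose 3 KO and 3 WT values do not overlap. In the left panel 40 of 49 points and in the right 17 of 23 points lie below 0, and most bars reach or come near 0.

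Lymphoid priming genes, which MPP begin to express ahead of the lymphoid branch, were also mostly lower. Of 23 tested members 17 (73.9%) were below 0, with a median of -0.15, and 6 did not overlap, all on the lower side, where the share among all genes was 4.66%. None passed after adjustment. The list's mean level, over all 24 measured members, was 7.77, 7.66 and 7.74 in KO and 7.77, 7.83 and 7.96 in WT. KO mouse 2 therefore equalled WT mouse 3 at this rounding. With single arrays left out, 15 to 19 members were below 0 and the median lay between -0.21 and -0.11. In HSC the list's median was 0.13.

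Tox, a chromatin factor of early lymphoid cells, read 9.31, 9.59 and 9.65 in KO and 10.42, 10.26 and 9.98 in WT (-0.70, SE 0.21). Ets1, a transcription factor needed for lymphocyte development, read 6.17, 6.09 and 6.51 in KO and 7.11, 6.70 and 7.59 in WT (-0.88, SE 0.28). These 2 of 23 were the members at an unadjusted p under 0.05 with limma, which 1.79% of all genes reached on the lower side. Dntt, the terminal transferase that marks lymphoid-primed progenitors, read 11.41, 11.30 and 11.16 in KO and 11.46, 11.56 and 11.57 in WT (-0.24, SE 0.18). The chromatin organiser Satb1 read 11.25, 11.23 and 11.16 in KO and 11.41, 11.35 and 11.38 in WT (-0.17, SE 0.45, which like every SE here includes the spread in HSC). Both were strongly expressed in either genotype and differed by little. The chemokine receptor gene Ccr9 (-0.42, SE 0.26) and the E-protein gene Tcf4 (-0.35, SE 0.25) completed the 6.

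For other lineages the medians were closer to 0 or leaned the other way. Of 29 tested myeloid progenitor genes 19 were above 0 (median 0.11; -0.02 without KO mouse 2), with Anxa3, an annexin of granulocytic cells, at 5.15, 4.91 and 4.29 in KO and 5.44, 5.74 and 5.52 in WT on the lower side (-0.78, SE 0.21). Of 22 tested megakaryocyte and erythroid genes 12 were below 0 (median -0.02), and of 12 early B cell genes 8 (median -0.09). Among 21 stem cell transcription regulators 15 were above 0 (median 0.04). Hoxa5 read 6.96, 6.79 and 6.82 in KO and 6.04, 6.38 and 6.30 in WT (0.62, SE 0.22), and Runx1 read 6.95, 6.67 and 6.76 in KO and 7.66, 7.14 and 6.96 in WT (-0.46, SE 0.24). Neither pair of groups overlapped, though for Runx1 the highest KO value (6.95) nearly met the lowest WT value (6.96). The share without overlap was 9.52% of the 21 regulators, against 9.49% of all genes.

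Markers of other cell types were read beside these results, and their part in them was not tested. Of 10 tested mast cell, basophil and eosinophil genes 7 were above 0, with a median of 0.30. The list's means, over all 17 measured members, were 5.57 to 5.82 in KO and 5.35 to 5.56 in WT, which did not overlap. Its members Cpa3, a mast cell protease gene, differed by 0.60 (SE 0.27) and Prg3, a granule protein gene, by 0.80 (SE 0.40). Of 14 neutrophil genes 9 were above 0 with a median of 0.28, but the median was -0.45 without WT mouse 64. Padi4, an enzyme of neutrophil chromatin, read 7.24, 6.20 and 5.48 in KO and 5.23, 5.38 and 4.86 in WT (1.15, SE 0.38). The means over 10 measured B cell genes were 5.71 to 6.23 in KO and 5.94 to 6.03 in WT, with Cd22 at -0.67 (SE 0.26). Over 17 measured T and NK cell genes they were 5.08 to 5.32 and 5.15 to 5.28, and 9 of the 17 were left out of the test as weak. Of the 8 tested, 3 did not overlap on the higher side and 1 on the lower, where the shares of all genes were 4.82% and 4.66%. Those higher were Gzmb (0.60, SE 0.23), Cd3e (0.26, SE 0.16) and Cd5 (0.18, SE 0.15). Cd4 was lower (-0.39, SE 0.29). Medians were 0.06 for 14 tested monocyte and macrophage genes, 0.11 for 12 dendritic cell genes, 0.02 for 6 erythroid genes and -0.05 for 12 endothelial and stromal genes. The means of these lists, over all measured members, overlapped between the genotypes.

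Type I interferon-stimulated genes, which are induced in response to viruses and damage, were spread over both directions. Of 61 tested members 37 (60.7%) were below 0 against 49.5% of all genes, with a median of -0.15. On the lower side 8 did not overlap and on the higher side 5, where the shares of all genes were 4.66% and 4.82%. The median was -0.02 without KO mouse 70, -0.05 without WT mouse 3 and -0.06 without WT mouse 64. Ifih1, the cytosolic RNA sensor MDA5, read 7.06, 7.0 and 6.34 in KO and 7.65, 7.41 and 7.75 in WT (-0.80, SE 0.29). Ifit3 read 6.21, 6.48 and 6.51 in KO and 6.97, 7.67 and 7.09 in WT (-0.84, SE 0.38), and Stat2, which carries the interferon signal to the nucleus, differed by -0.61 (SE 0.24). Slfn5, a Schlafen family gene, was opposite at 7.98, 8.60 and 8.16 in KO and 6.82, 7.45 and 7.47 in WT (1.0, SE 0.41). Parp12 (0.77, SE 0.36) and Isg15 (-0.75, SE 0.45), picked out after their values were seen, did not overlap either, and each had the opposite sign in HSC.

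Among receptors and sensors, Ifngr2, a chain of the interferon-gamma receptor, read 6.56, 6.55 and 6.83 in KO and 7.01, 7.11 and 7.55 in WT (-0.57, SE 0.19). The endosomal RNA sensor Tlr7 read 7.45, 7.41 and 8.83 in KO and 8.92, 9.02 and 8.67 in WT, so that KO mouse 70 lay among the WT values (-0.98, SE 0.32). The adaptor Ticam1 differed by -0.48 (SE 0.21) without overlap. Over 29 NF-kB and inflammatory genes 19 were below 0 with a median of -0.14, which was -0.07 without WT mouse 12 and -0.09, with 15 below 0, without WT mouse 3. None of them had an unadjusted p under 0.05 with limma.

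Metabolic and stress lists centred near 0. The medians were 0.01 for 46 oxidative phosphorylation genes and 34 cytosolic ribosomal protein genes, -0.02 for 25 glycolysis and hypoxia genes, 0.05 for 23 p53 targets, 0.02 for 30 genes of the unfolded protein and integrated stress response and -0.03 for 30 proteasome subunits. Single members of such lists are given with their values. Pfkp, the platelet form of phosphofructokinase, read 8.45, 7.63 and 7.75 in KO and 6.80, 7.15 and 7.03 in WT (0.95, SE 0.28). Hsf2, a heat shock factor, read 5.83, 7.0 and 6.94 in KO and 7.84, 7.22 and 7.61 in WT (-0.97, SE 0.34). Chac1, a glutathione-degrading enzyme of the stress response, read 6.21, 5.55 and 5.99 in KO and 5.29, 5.41 and 5.28 in WT (0.59, SE 0.19). None of the 3 overlapped, and for Hsf2 the lowest value by far was that of KO mouse 2. The shares without overlap were 12.0% of the glycolysis list, 6.25% of 16 tested heat shock genes and 6.67% of the stress response list. Among all genes the share was 9.49%, so such members are no more frequent than this in 2 of the 3 lists.

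**Figure D4:**
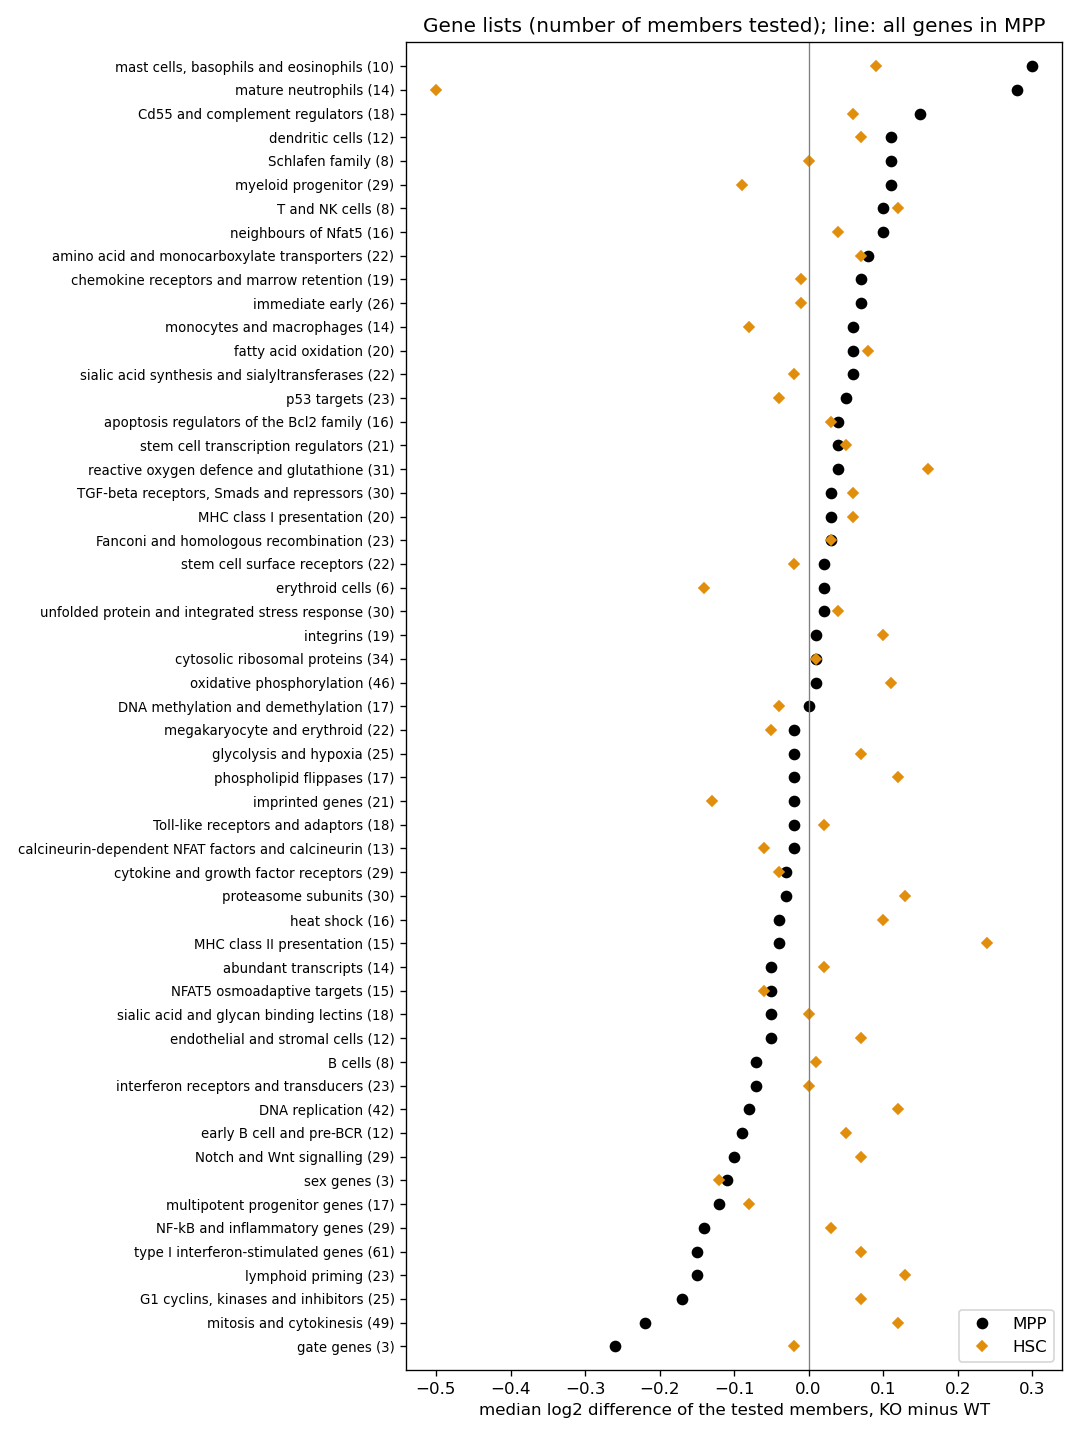
Median log2 difference between KO and WT of each gene list (x axis) in MPP (black circles) and HSC (orange diamonds), with the number of members tested in brackets; the grey line is the median of all genes in MPP. Mitosis (-0.22), G1 (-0.17), lymphoid priming (-0.15) and interferon-stimulated genes (-0.15) are lowest in MPP among lists of over 20 genes, and their HSC medians are above 0.

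The same contrast in HSC shared little with that in MPP. The groups did not overlap for 1387 genes in MPP and 1297 in HSC (8.87% of those tested), and 118 genes were in both sets, which is 8.51% of the first and 9.10% of the second. Of these 118, 57 had the same direction and 61 the opposite one. The 2 contrasts use different arrays of the same 6 mice. Nfat5 had about the same difference in both, -0.87 in MPP and -0.91 in HSC. Tested directly, the difference between the 2 contrasts passed for 0 genes with limma (lowest adjusted p 0.884), and 658 genes (4.50%) had an unadjusted p under 0.05, so no gene is shown to respond in MPP only.

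Among the genes with the lowest p for that difference, Cd55 was 2.75 in MPP and -0.73 in HSC and Tgif2 was 1.97 and -0.33. Zfp280c, a zinc finger gene, read 9.80, 8.76 and 9.42 in KO MPP and 8.43, 8.63 and 8.59 in WT MPP (0.77, SE 0.32), while its HSC difference was -1.37 (SE 0.32). Bcl2, the survival factor, was 0.40 (SE 0.19) in MPP and -0.81 (SE 0.19) in HSC. Fkbp5, a chaperone gene induced by glucocorticoids, read 8.94, 8.30 and 7.16 in KO MPP and 9.35, 8.85 and 9.26 in WT MPP (-1.02, SE 0.40) and had a difference of 2.16 (SE 0.40) in HSC. The MPP values of Fkbp5 overlapped, and KO mouse 70 gave the low end.

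**Figure D5:**
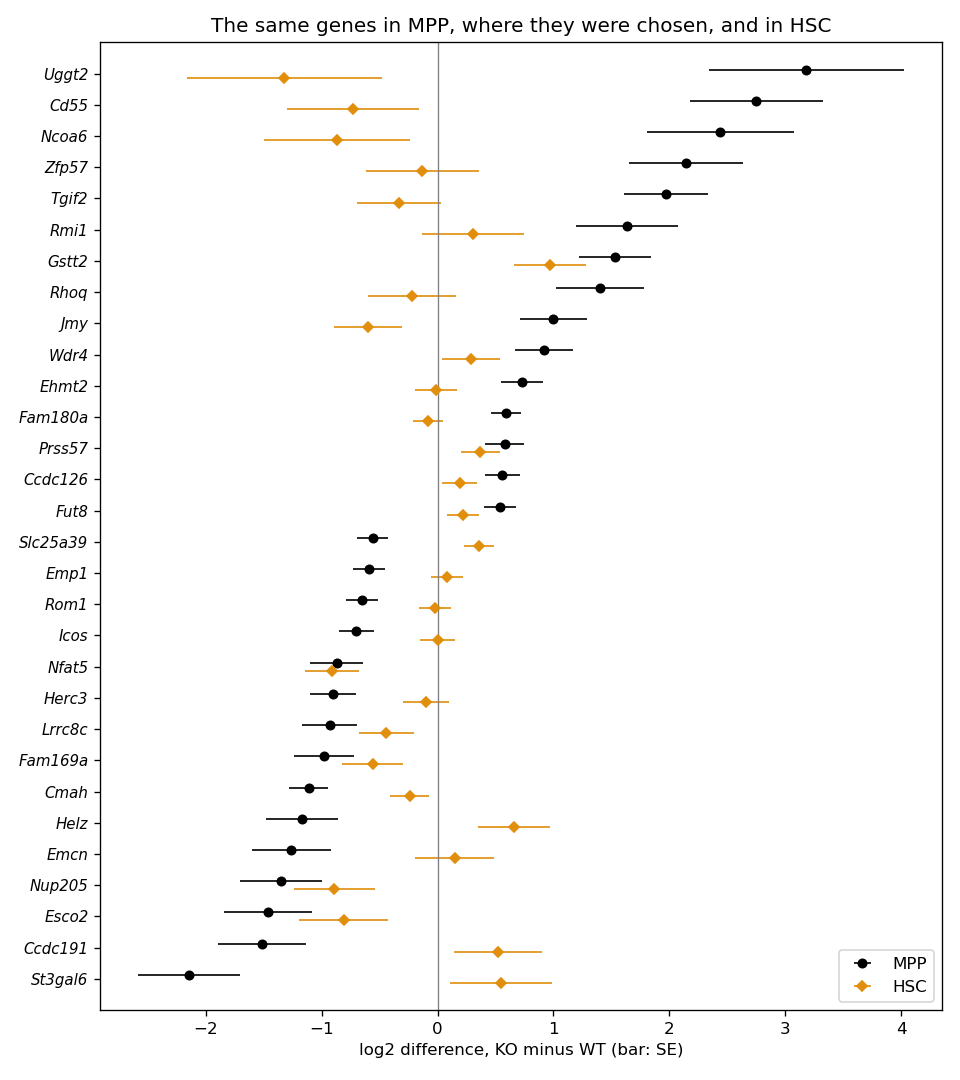
Log2 difference between KO and WT (x axis) with its SE, for the 30 genes named from the MPP comparison (rows), in MPP (black circles) and in HSC (orange diamonds). The genes were chosen on the MPP values, so only the HSC points are free of that choice: Nfat5 and Nup205 lie on the same side in both, while Cd55, Uggt2 and St3gal6 lie on opposite sides.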

How the data were processed

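The authors deposited 1 log2 intensity per probe set and array, made with RMA, which subtracts background, gives all arrays 1 distribution and summarises probes; limma is also named, both per the submitters' processing notes, with versions not given in the sources used here. Per the labels' protocols, 300 pg of total RNA per sample was amplified, which adds noise to weak transcripts. Since RMA equalises arrays, a shift of the whole transcriptome between genotypes would be removed.

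Of 22142 probe sets, 19527 carried 1 gene symbol, 0 several and 2615 none. They gave 19494 genes, with the brightest probe set kept for 33 genes, and 4874 of them, the weakest 25% by mean value, were left out. All 12 arrays were fitted as 4 group means in limma 3.58.1 (R 4.3.3, statmod 1.5.0), with two-sided tests adjusted over the 14620 remaining genes, and the procedure was tested on simulated data. The members and the 55 gene lists were chosen with earlier results of these data known. Lists are described by counts and medians, without a set test. The text names Nfat5, the sort antigens, the 15 genes a direction with the lowest p among those that differ by at least 0.5 without overlap, up to 4 members of a list by p and 5 genes a direction for the difference between populations. Members of lists outside this rule were picked after their values were seen. These are Nfatc2, Nfatc4, Slc6a6, Hmmr, Mki67, Satb1, S100a8, Parp12, Isg15, Cd5 and the genes of the last part of the closing section. HSC and MPP arrays pair by mouse, per the labels, and deviations of the arrays of a mouse correlated with r of 0.032 to 0.091 across genes. Alternatives were other filters, the mean of probe sets, a second quantile normalization, median centring, robust moderation, array weights, MPP arrays only, the mouse as a block and each array left out; list counts with single arrays left out were added after the data were seen.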

Additional observations from a re-analysis of the deposited data

Results flagged for a closer look

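For 8 of the named genes the 3 KO and 3 WT values did not overlap in either population and lay in opposite directions. The limma test of the difference between the MPP and HSC contrasts, run on all genes, gave each an adjusted p of 0.884. These 8 were picked by that pattern in the same arrays, so the size of their differences is no separate support. Jmy was 1.0 in MPP and -0.60 in HSC, a difference of 1.60 (SE 0.41). Parp12, an interferon-stimulated gene, was 0.77 and -1.28 (2.05, SE 0.51), and Zfp280c was 0.77 and -1.37 (2.15, SE 0.46). The remaining genes were lower in KO MPP and higher in KO HSC. Slc25a39 was -0.56 and 0.36 (-0.93, SE 0.19), Anxa3 -0.78 and 0.59 (-1.37, SE 0.30), and Zdhhc15, a palmitoyltransferase gene, -0.86 and 1.01 (-1.88, SE 0.40). Ccdc191 was -1.51 and 0.52 (-2.03, SE 0.54), and Isg15, a ubiquitin-like protein of the interferon response, was -0.75 and 1.55 (-2.29, SE 0.64). Over all genes 24 were higher in MPP and lower in HSC without overlap, and 37 were the reverse, beside 57 that shared a direction.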

How the results depend on the processing

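No gene passed at an adjusted p under 0.05 with limma under any alternative run, in the MPP contrast or in the difference between populations. The count at an unadjusted p under 0.05, 466, was 296 with the lowest 50% of genes left out and 716 with array weights, and the count without overlap, 1387, was 922 with the 50% filter. With the mouse as a random block, 456 genes had an unadjusted p under 0.05 with limma in MPP. A separate fit with the mouse as a fixed block gave 749 for the difference between populations, against 658. No call changed in either fit. With both arrays of a mouse left out, the count for the difference was 532 to 766. With single arrays left out, the MPP count was 403 to 611 and Nfat5 lay between -1.01 and -0.74. Of the named genes, Cd48 (-0.14 to 0.38), Nfatc2 (-0.17 to 0.09) and Nfatc4 (-0.15 to 0.01) changed sign with an array left out; the cause was not tested. Precision is limited by 3 arrays a side, with a median SE of 0.229.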

Other observations

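A few genes outside the naming rule lay apart in the same direction in MPP and HSC. Ptprc, which encodes CD45, the phosphatase on the surface of all white blood cells, read 9.35, 8.99 and 8.88 in KO MPP and 8.74, 8.46 and 7.65 in WT MPP, a log2 difference of 0.79 (SE 0.31), and the difference in HSC was 0.92. Pls3, an actin-bundling plastin, was 0.93 (SE 0.28) in MPP and 1.14 in HSC, and Pde7b, a cAMP phosphodiesterase, 1.48 (SE 0.57) and 1.57. The WT MPP values of Pde7b ran from 5.66 to 8.03, just under the lowest KO value of 8.06, and its MPP difference was 0.90 without WT mouse 64. On the lower side, Nipsnap3b read 8.09, 7.95 and 7.48 in KO MPP and 9.04, 9.53 and 8.40 in WT MPP (-1.15, SE 0.32) and was -1.42 in HSC. Kcnj13, a potassium channel gene, was -0.70 (SE 0.21) and -0.74, and Pglyrp1, a peptidoglycan-binding protein of neutrophil granules, -1.10 (SE 0.34) and -0.76. None passed in either population, and these genes are among 57 with a shared direction, beside 61 with opposite ones.

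Within lists that centred near 0, Psmd3, a lid subunit of the proteasome, read 7.47, 8.20 and 7.41 in KO and 8.50, 8.64 and 8.33 in WT (-0.80, SE 0.37). The glycolytic gene Hk2 read 4.55, 4.47 and 4.61 in KO and 4.76, 4.67 and 5.84 in WT (-0.55, SE 0.35), with WT mouse 64 above the rest.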
